A study of Mus musculus with 8 samples.

Results

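The mitotic spindle, kinetochore and cohesion genes were examined in RAW264.7, a dividing mouse line with macrophage traits. The members were the 49 genes named for this machinery by symbol, from the histone variant of the centromere to the kinases, motors and cohesin subunits that separate sister chromatids. All 49 were found once each among the 22013 genes of the count table. They were read in 6 role groups. RNA had been sequenced from 4 libraries of cells given PBS and 4 of cells given rFSTL1, the recombinant form of FSTL1, for 24 h at a dose of 100 ng/mL, to ask how this secreted glycoprotein acts on macrophages. All libraries share the unmodified parental line, and no other agent is named in the labels. RAW264.7 is 1 transformed line, and the labels do not say whether the libraries came from separate cultures, so p-values measure the spread between these libraries only.

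Chromosome segregation rests on a few linked assemblies. Nucleosomes with the histone variant CENP-A mark the centromere, the constitutive centromere-associated network (CCAN) binds them, and the outer kinetochore of Knl1, the Mis12 complex and the Ndc80 complex grips the spindle microtubules. Unattached kinetochores signal through Ttk, Bub1, Bub1b, Bub3 and Mad2l1 to hold Cdc20, the activator of the anaphase-promoting complex (APC/C), while cohesin keeps sister chromatids together until separase cuts its Rad21 subunit. Many of these genes are transcribed mainly in late G2 and mitosis under the DREAM and MuvB complexes, which bind the cell cycle genes homology region (CHR) of their promoters, and NF-Y, which binds CCAAT boxes, whereas the cohesin core is also made outside mitosis.

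The libraries held 15062026 to 20234472 estimated counts each, and 10748 genes passed edgeR's expression filter, all 49 members among them. Levels are given as CPM, a gene's count in units of the library total after edgeR's TMM scaling. Of 9 macrophage markers, 8 were expressed highly enough to be tested, with Csf1r and Lyz2 among the strongest. Mertk was close to 0 and Adgre1 was low (mean 3.54 CPM). Markers of fibroblasts, epithelium and hepatocytes, lymphoid cells and endothelium were each below 0.4 CPM on average, and 0 of those 20 genes were tested. rFSTL1 replicates 3 and 4 stood apart from the other 6 libraries in relation to the GC content of transcripts. Among all tested genes in the lowest GC range of the members, the median change from the PBS mean was -0.14 and -0.21 in these libraries (log2 units), where the other 6 had -0.046 to 0.049. Role group medians and the members described by library are therefore also given without them where the value turned or moved by over 1.5 times.

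None of the 49 members passed an adjusted p of 0.05 in edgeR's quasi-likelihood fit (Benjamini-Hochberg), beside 37 of all 10748 genes (0.344%). At an unadjusted p under 0.05 there were 8 members (16.3%), against 15.8% of all genes, of which 7 were lower under rFSTL1 (14.3%), against 7.56%. In 2 members (4.08%) all 4 rFSTL1 libraries lay below all 4 PBS libraries, against 3.53% of all genes, and in 0 members did they lie above, against 4.63%. DESeq2 called 2 members lower (4.08%, against 0.568% of all genes), namely Knl1 and Stag2. limma voom with sample quality weights called 6 lower (12.2%, against 1.95%), which were Cenpe, Cenpf, Cenpk, Knl1, Sgo2a and Stag2. Of the 49 members, 34 had a negative and 15 a positive log2 fold change, and the median was -0.043, beside 0.0058 over all tested genes. Without rFSTL1 replicates 3 and 4, an alternative chosen after seeing the data, the median of the members was -0.0011, 0 members were called by edgeR and 3 (6.12%) had an unadjusted p under 0.05 (Bub1, Cdc20 and Stag2), against 9.82% of all genes in that fit. In 21 members the sign of the log2 fold change turned, and none of the 21 had an unadjusted p under 0.05 with all 8 libraries.

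The changes were small and tightly bounded. The log2 fold changes ran from -0.31 (Cenpk) to 0.24 (Cenpm), with a median standard error of 0.051. For 45 of the 49 members the 95% interval lay within a 1.25-fold change in either direction, compared with 70.5% of all tested genes. The other 4 were Cenpk, Cenpm, Knl1 and Sgo2a. RNA from a whole culture cannot tell fewer cells in mitosis from less of these mRNAs per cell.

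**Figure D1:**
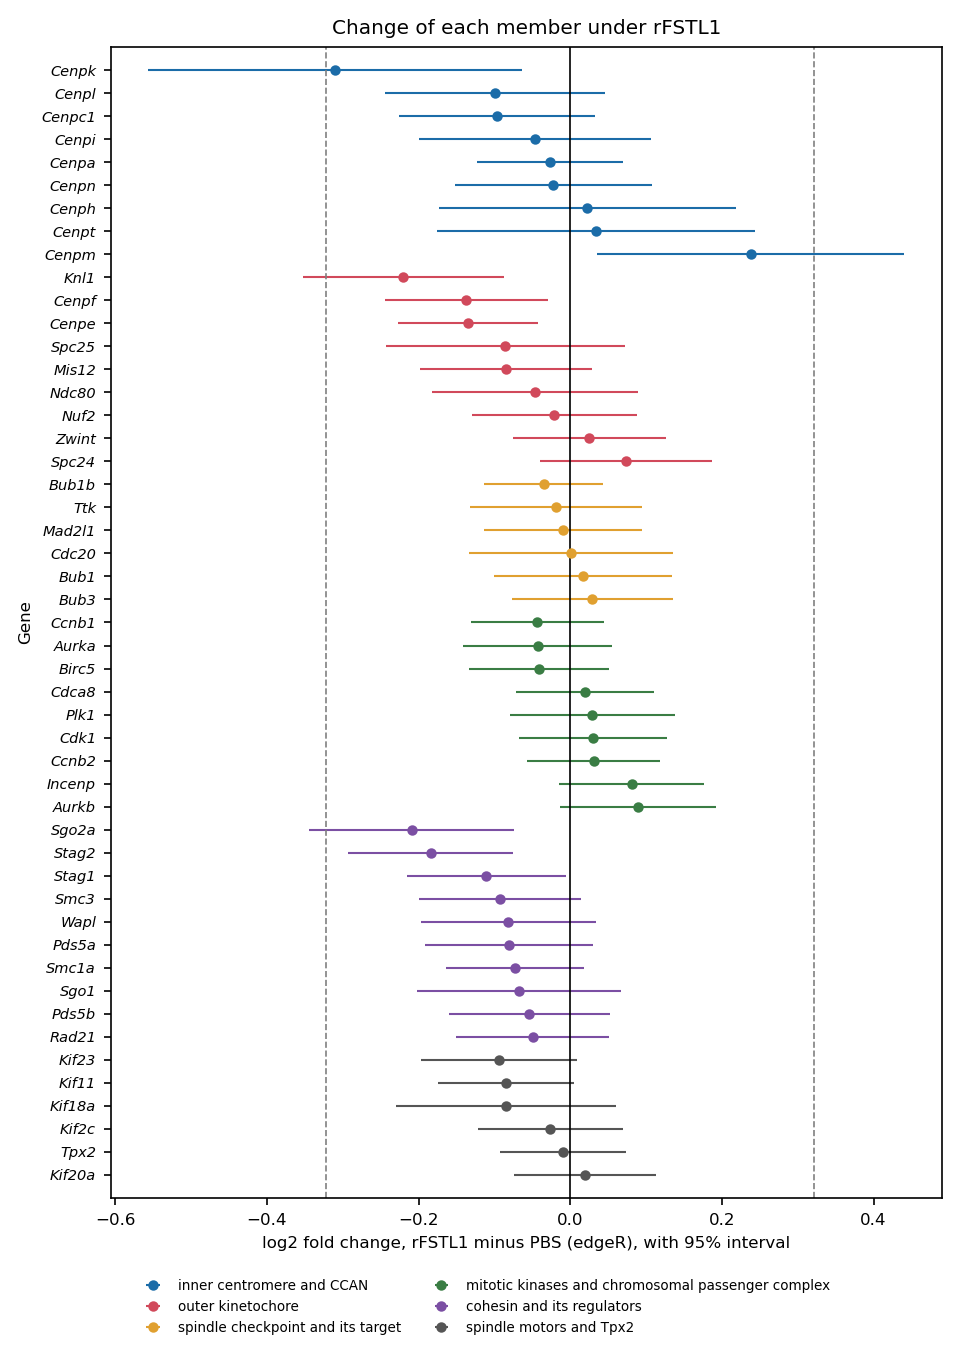
The log2 fold change of each of the 49 members (rFSTL1 minus PBS, x axis) is plotted with its 95% interval from edgeR, in colours by role group, and dashed lines mark a 1.25-fold change. Points sit between -0.31 and 0.24, with all 10 cohesin genes left of 0.

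**Figure D2:**
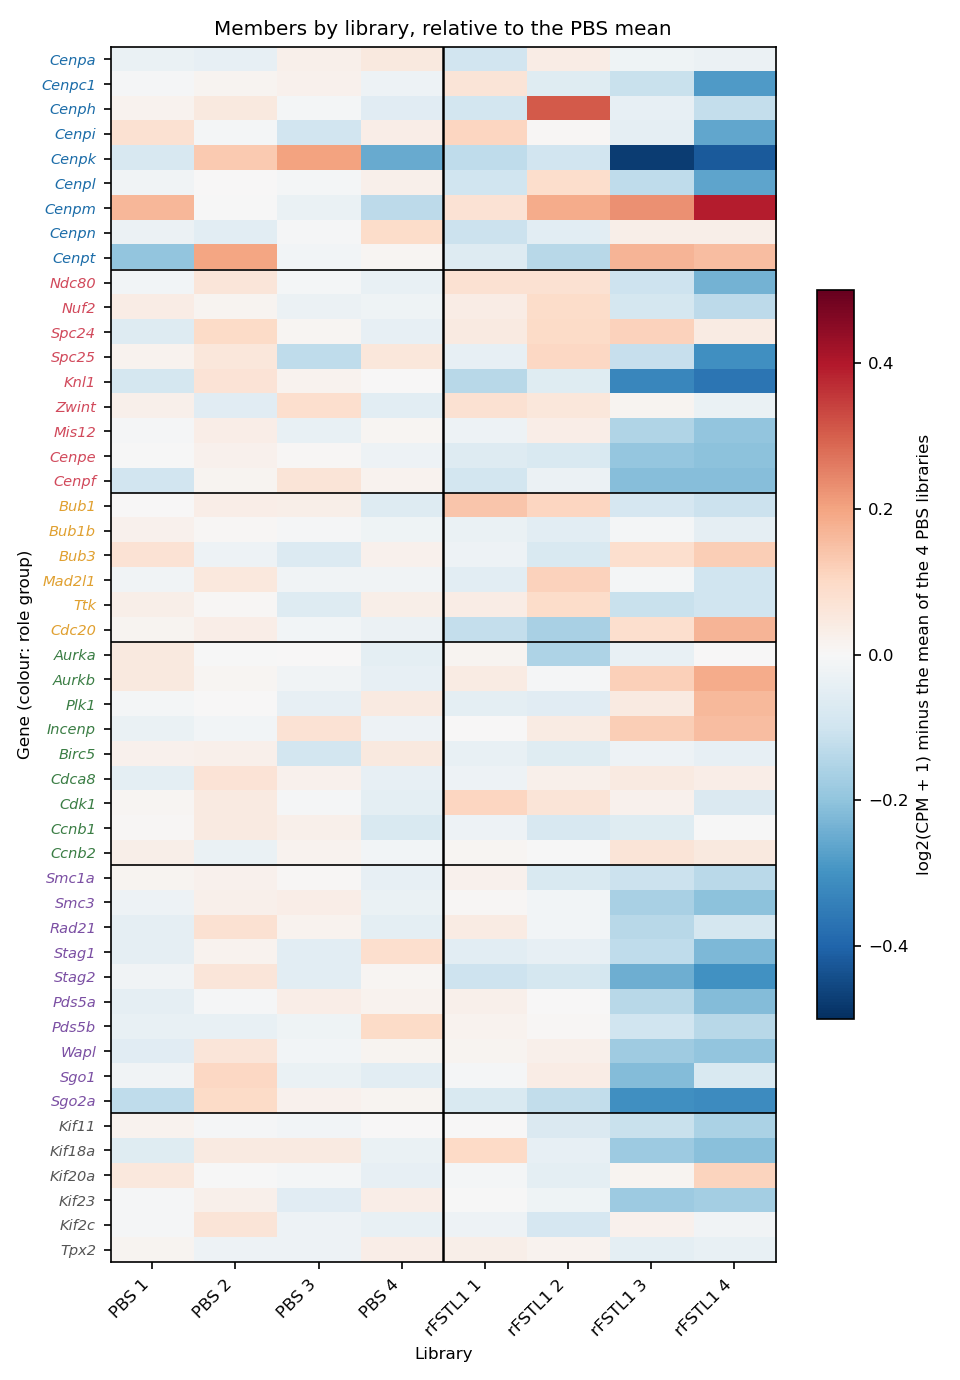
Each row is a member and each column a library, coloured by log2(CPM + 1) minus the mean of the 4 PBS libraries. The darkest blue fields are in rFSTL1 replicates 3 and 4. These were the lowest pair of the 8 libraries in 25 members (51.0%, against 15.5% of all tested genes). They were the highest pair in 6 (12.2%, against 14.5%).

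The promoters carry a feature that the choice of members did not use. In RefSeq's promoter table (GRCm38.p6, 250 bases before to 50 bases after a start), 42 members had an entry, and Aurkb, Incenp, Kif20a, Rad21, Spc24, Stag2 and Tpx2 had none. The CHR element, searched as TTTGAA on both strands, was in at least 1 window of 20 members (47.6%), against 20.2% of all 27025 genes in the table. CCAAT, searched likewise on both strands, was in 32 members (76.2%), against 41.1% of all genes, and both motifs were in 17 members (40.5%), against 7.97%. The CHR letters were found in 5 of 7 kinase and passenger genes, 4 of 6 checkpoint genes, 3 of 4 motor genes, 4 of 8 outer kinetochore genes, 3 of 9 inner centromere genes and 1 of 8 cohesin genes, and the difference between groups was not tested. A match of these letters is a description and not a site. The 250 bases upstream of the start are shown for the 6 members with the lowest adjusted p among those given by library whose upstream stretch holds either motif. They are Sgo2a at chr1:57985090-57985339 (plus strand), Cenpe at chr3:135212313-135212562 (plus strand), Cenpf at chr1:189688087-189688336 (minus strand), Cenpk at chr13:104228361-104228610 (plus strand), Cenpm at chr15:82244337-82244586 (minus strand) and Kif11 at chr19:37376132-37376381 (plus strand). Each reads 5′ to 3′ on the gene's strand, and capitals mark CCAAT, its reverse complement ATTGG, or TTCAAA, the reverse complement of TTTGAA.
Sgo2a: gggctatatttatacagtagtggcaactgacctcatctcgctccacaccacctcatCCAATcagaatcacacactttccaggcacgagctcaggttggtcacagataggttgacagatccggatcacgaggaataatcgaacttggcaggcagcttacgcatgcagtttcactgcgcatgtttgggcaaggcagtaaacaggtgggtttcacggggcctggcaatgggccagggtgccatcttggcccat
Cenpe: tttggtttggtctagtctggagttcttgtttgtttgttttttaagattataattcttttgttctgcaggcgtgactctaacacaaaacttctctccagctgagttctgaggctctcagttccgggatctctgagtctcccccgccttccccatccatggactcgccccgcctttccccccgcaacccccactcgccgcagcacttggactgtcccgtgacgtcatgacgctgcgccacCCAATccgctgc
Cenpf: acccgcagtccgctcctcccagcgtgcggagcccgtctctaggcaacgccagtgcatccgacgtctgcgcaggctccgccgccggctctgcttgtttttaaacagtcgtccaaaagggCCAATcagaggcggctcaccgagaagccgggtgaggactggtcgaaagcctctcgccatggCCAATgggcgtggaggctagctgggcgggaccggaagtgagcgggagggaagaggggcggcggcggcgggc
Cenpk: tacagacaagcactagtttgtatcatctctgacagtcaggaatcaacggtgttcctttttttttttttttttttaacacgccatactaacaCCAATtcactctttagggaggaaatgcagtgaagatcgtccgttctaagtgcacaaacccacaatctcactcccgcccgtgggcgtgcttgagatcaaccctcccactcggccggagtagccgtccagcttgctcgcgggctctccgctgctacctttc
Cenpm: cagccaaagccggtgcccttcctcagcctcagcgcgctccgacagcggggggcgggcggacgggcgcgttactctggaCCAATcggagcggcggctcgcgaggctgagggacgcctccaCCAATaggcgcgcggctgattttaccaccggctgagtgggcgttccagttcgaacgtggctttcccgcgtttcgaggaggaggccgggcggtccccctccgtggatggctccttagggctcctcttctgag
Kif11: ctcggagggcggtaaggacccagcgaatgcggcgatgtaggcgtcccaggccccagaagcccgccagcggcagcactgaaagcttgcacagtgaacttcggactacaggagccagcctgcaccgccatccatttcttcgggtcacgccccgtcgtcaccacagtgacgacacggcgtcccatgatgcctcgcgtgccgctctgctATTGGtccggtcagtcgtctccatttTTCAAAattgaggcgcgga

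Of the 6 stretches, 5 hold only CCAAT, and Kif11 holds both motifs within 45 bases of its start, on the strand opposite to the gene. Cenpf is counted above as holding TTTGAA through a match outside the stretch shown. Knl1 also holds TTTGAA, but not in its upstream stretch, and is therefore not shown. Cenpf and Cenpm each hold CCAAT at 2 places. Cenpm had a positive and the other 5 a negative fold change, so the same letters stand before genes on either side of 0.

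The inner centromere group holds Cenpa, the centromeric histone, and 8 genes of the CCAN. Of these 9 genes, 6 had a negative and 3 a positive fold change (median -0.027). In opposite directions, 2 had an unadjusted p under 0.05 (22.2%, against 15.8% of all genes). Without rFSTL1 replicates 3 and 4 the median was -0.0011. Cenpk (ENSMUSG00000021714), a subunit of the CCAN, had 18.3, 21.3, 22.4 and 16.1 CPM in PBS replicates 1 to 4 and 17.6, 18.04, 13.7 and 14.2 CPM in rFSTL1 replicates 1 to 4. rFSTL1 replicates 3 and 4 were the lowest, and replicates 1 and 2 lay inside the PBS range. The means were 19.5 ± 2.87 CPM (SD, n = 4) and 15.9 ± 2.27 CPM (SD, n = 4), with a log2 fold change of -0.31 (standard error 0.12, edgeR adjusted p = 0.226, exact permutation p = 0.114). Without rFSTL1 replicates 3 and 4 it was -0.14.

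Cenpm (ENSMUSG00000068101), another CCAN subunit, had the lowest mean level of the members. It had 15.7, 13.8, 13.5 and 12.6 CPM under PBS and 14.6, 15.9, 16.4 and 18.5 CPM under rFSTL1, where 3 of 4 libraries were above every PBS library and replicate 1 was not. Its log2 fold change was 0.24 (standard error 0.095, edgeR adjusted p = 0.251, exact permutation p = 0.0571), and 0.14 without rFSTL1 replicates 3 and 4. Cenpa itself differed little, with 94.3 ± 2.92 CPM (SD, n = 4) and 92.6 ± 3.55 CPM (SD, n = 4) and a 95% interval of -0.12 to 0.069 for its log2 fold change. Cenpc1, which links the centromeric nucleosome to the outer kinetochore, had a log2 fold change of -0.096, and Cenpt, which offers a parallel link, had 0.034. Cenpl and Cenpn, which form a pair within the CCAN, had -0.10 and -0.022, and Cenph and Cenpi, of the same network, had 0.023 and -0.046. Leaving out rFSTL1 replicates 3 and 4 turned Cenpc1 to 0.0018, Cenpt to -0.12 and Cenpi to 0.058. Cenph became 0.13, Cenpl -0.0011 and Cenpn -0.082.

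In the outer kinetochore, 7 of 9 genes had a negative fold change (median -0.085), and 3 of them, the large proteins Knl1, Cenpe and Cenpf, had an unadjusted p under 0.05. That is 33.3% of the group, against 15.8% of all genes in either direction and 7.56% lower. Without rFSTL1 replicates 3 and 4 the median of the group turned to 0.036. Knl1 (ENSMUSG00000027326) is the scaffold to which the Bub proteins bind. It had 189, 212, 204 and 202 CPM under PBS and 183, 194, 161 and 156 CPM under rFSTL1, with replicate 2 inside the PBS range, replicate 1 just below it and replicates 3 and 4 further below. The PBS mean was 202 ± 9.23 CPM (SD, n = 4) and the rFSTL1 mean 173 ± 17.9 CPM (SD, n = 4), and the log2 fold change was -0.22 (standard error 0.062, edgeR adjusted p = 0.137, exact permutation p = 0.0571). By DESeq2 the adjusted p was 0.0494, and edgeR without rFSTL1 replicate 2 also called it, whereas without rFSTL1 replicates 3 and 4 its log2 fold change was -0.099.

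Cenpe (ENSMUSG00000045328), a kinesin motor that carries chromosomes along microtubules, had 251, 255, 252 and 247 CPM under PBS and 240.2, 238, 219.7 and 218 CPM under rFSTL1. The groups did not overlap, and the exact permutation p was 0.0286, the smallest that 4 against 4 libraries allow. Its log2 fold change was -0.14 (standard error 0.043, edgeR adjusted p = 0.177), and -0.072 without rFSTL1 replicates 3 and 4. Cenpf (ENSMUSG00000026605), a large protein of the fibrous corona, had 233, 251, 259.7 and 252 CPM and 233, 244, 215 and 214 CPM in the same order of groups. Its rFSTL1 replicates 3 and 4 were the lowest, and replicates 1 and 2 exceeded PBS replicate 1. Its log2 fold change was -0.14 (standard error 0.051, edgeR adjusted p = 0.224), and -0.062 without rFSTL1 replicates 3 and 4.

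The 4 subunits of the Ndc80 complex, which binds the microtubule, had log2 fold changes of -0.046 for Ndc80, -0.021 for Nuf2, 0.073 for Spc24 and -0.085 for Spc25. None of these had an unadjusted p under 0.05. Mis12, of the complex that joins Ndc80 to the centromere, had -0.085, and Zwint, a partner of Knl1, had 0.025. Leaving out rFSTL1 replicates 3 and 4 turned Ndc80 to 0.074, Nuf2 to 0.065, Spc25 to 0.036 and Mis12 to 0.0050. Zwint became 0.063.

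Of the 6 spindle checkpoint genes, 3 had a positive and 3 a negative fold change, all between -0.035 and 0.029 (median -0.0041), and all 6 intervals lay within a 1.25-fold change. The range was -0.14 to 0.12 without rFSTL1 replicates 3 and 4, and with the length and GC trend removed from -0.086 to 0.097. Bub1b (ENSMUSG00000040084), which encodes the BubR1 component of the inhibitory complex, had 264, 262, 259 and 257 CPM under PBS and 255, 251, 259 and 252 CPM under rFSTL1. The 2 ranges overlapped, and the log2 fold change was -0.035 (standard error 0.037, edgeR adjusted p = 0.672, exact permutation p = 0.0571). Bub3 (ENSMUSG00000066979), which brings Bub1 and BubR1 to Knl1, had 192, 179.6, 174 and 186 CPM and 179.8, 173, 194 and 199 CPM. Its rFSTL1 replicates 3 and 4 were the highest of the 8 libraries and replicate 2 the lowest, and the log2 fold change of 0.029 turned to -0.051 without replicates 3 and 4.

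Cdc20 is the target of the checkpoint, and a mean fold change near 0 hid opposite deviations. It had 134, 136, 131 and 129.7 CPM under PBS and 122, 118, 140.4 and 149 CPM under rFSTL1, so that rFSTL1 replicates 1 and 2 were below and replicates 3 and 4 above every PBS library. Its log2 fold change was 0.00141 with a standard error of 0.063, and -0.14 without rFSTL1 replicates 3 and 4. The kinase Bub1 showed the reverse order, with 266, 272, 271 and 254 CPM under PBS and 293, 286, 251 and 247 CPM under rFSTL1. Its log2 fold change was 0.017, and 0.12 without rFSTL1 replicates 3 and 4. Cdc20 and Bub1 were named here after their values had been seen. Mad2l1, the checkpoint protein that captures Cdc20, had a log2 fold change of -0.0096, and Ttk, the kinase that starts the signal, had -0.019, and both turned without rFSTL1 replicates 3 and 4, to 0.035 and 0.066.

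Among the mitotic kinases and the chromosomal passenger complex, 6 of 9 genes had a positive fold change (median 0.029), none had an unadjusted p under 0.05, and all 9 intervals lay within a 1.25-fold change. The median turned to -0.0012 without rFSTL1 replicates 3 and 4 and to -0.0059 with the length and GC trend removed. Aurkb (ENSMUSG00000020897), the kinase of the passenger complex, which corrects wrong attachments, had 108, 105, 103 and 101 CPM under PBS and 107, 104, 113 and 118 CPM under rFSTL1. Its scaffold Incenp (ENSMUSG00000024660) had 253, 257, 272 and 255 CPM and 259.6, 266, 282 and 288 CPM. In both genes rFSTL1 replicates 3 and 4 were the highest of the 8 libraries, and the remaining rFSTL1 libraries lay within the PBS range. The log2 fold changes were 0.089 for Aurkb and 0.081 for Incenp (standard errors 0.049 and 0.045, edgeR adjusted p = 0.377 and 0.389). Their exact permutation p-values were 0.143 in each case, and without replicates 3 and 4 the fold changes were 0.019 and 0.020.

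The other passenger subunits, Birc5 (survivin) and Cdca8 (borealin), had log2 fold changes of -0.041 and 0.019. Cdk1, the kinase that drives entry into mitosis, had 149.6 ± 3.89 CPM (SD, n = 4) and 153 ± 8.18 CPM (SD, n = 4). Its cyclins Ccnb1 and Ccnb2 had log2 fold changes of -0.043 and 0.031, with 95% intervals of -0.13 to 0.045 and -0.057 to 0.12. Aurka, which matures the spindle poles, had -0.043, and Plk1, which acts from mitotic entry to cytokinesis, had 0.029. Plk1 turned to -0.054 and Cdca8 to -0.0012 without rFSTL1 replicates 3 and 4. Ccnb2 became 0.0031 and Aurka -0.069.

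All 10 genes of cohesin and its regulators had a negative fold change, from -0.21 to -0.050 (median -0.081), and 3 had an unadjusted p under 0.05. In all 10, rFSTL1 replicates 3 and 4 were the lowest pair of the 8 libraries, which held for 15.5% of all tested genes. The median deviation of the 10 genes from the PBS mean was 0.010, -0.014, -0.15 and -0.20 in rFSTL1 replicates 1 to 4, beside -0.041, 0.043, -0.0031 and 0.011 in the PBS replicates. Without rFSTL1 replicates 3 and 4 the median log2 fold change of the group was 0.0037.

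Stag2 (ENSMUSG00000025862), the more abundant of the STAG subunits of cohesin, had 251, 265, 245 and 256 CPM under PBS and 237, 239, 214 and 206 CPM under rFSTL1. No rFSTL1 library reached the lowest PBS library (exact permutation p = 0.0286, the smallest possible). The means were 254 ± 8.41 CPM (SD, n = 4) and 224 ± 16.5 CPM (SD, n = 4), with a log2 fold change of -0.18 (standard error 0.051, edgeR adjusted p = 0.134). By DESeq2 its adjusted p was 0.0398, and without rFSTL1 replicates 3 and 4 its log2 fold change was -0.097. Its paralog Stag1 had a log2 fold change of -0.11 (edgeR adjusted p = 0.292), and -0.047 without rFSTL1 replicates 3 and 4.

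Sgo2a (ENSMUSG00000026039), a shugoshin that shields centromeric cohesin, had 75.5, 88.3, 83.9 and 83.3 CPM under PBS and 78.3, 75.8, 66.6 and 66.3 CPM under rFSTL1. The groups overlapped through PBS replicate 1. The log2 fold change was -0.21 (standard error 0.064, edgeR adjusted p = 0.157, exact permutation p = 0.0857), and -0.10 without rFSTL1 replicates 3 and 4. Sgo2a, Cenpk, Mis12 and Kif20a were the 4 members with estimated counts that were not whole numbers (tolerance 1e-06), which can arise where reads are shared with another gene, so their levels are less certain. Sgo1, the other shugoshin, had -0.068. The ring subunits Smc1a, Smc3 and Rad21 had -0.073, -0.092 and -0.050, and the regulators Pds5a, Pds5b and Wapl, which govern release of the ring, had -0.081, -0.054 and -0.082. When rFSTL1 replicates 3 and 4 were left out, Rad21, Pds5a, Pds5b, Wapl and Sgo1 turned to 0.012, 0.013, 0.012, 0.020 and 0.014. Smc1a became -0.027 and Smc3 -0.0046.

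Of the 5 spindle kinesins and Tpx2, 5 genes had a negative and 1 a positive fold change (median -0.055), and none had an unadjusted p under 0.05. The median was -0.021 without rFSTL1 replicates 3 and 4. Kif23 (ENSMUSG00000032254), of the central spindle, had 218, 222, 210.1 and 224 CPM under PBS and 218, 215, 192 and 194 CPM under rFSTL1. Kif11 (ENSMUSG00000012443), the kinesin that pushes the spindle poles apart, had 234, 230.5, 229 and 231 CPM and 232, 219.8, 214 and 207 CPM. In both, rFSTL1 replicates 3 and 4 were the lowest libraries and replicate 1 lay within the PBS range. The log2 fold changes were -0.094 and -0.085 (standard errors 0.049 and 0.042, edgeR adjusted p = 0.359 and 0.340), and -0.013 and -0.035 without rFSTL1 replicates 3 and 4. Kif18a, which damps chromosome movement, had -0.084. Kif20a and Kif2c, a motor of cytokinesis and a microtubule depolymerase, had 0.019 and -0.026, and the spindle assembly factor Tpx2 had -0.0097. Kif18a turned to 0.029, Kif20a to -0.029 and Tpx2 to 0.023 without rFSTL1 replicates 3 and 4, and Kif2c became -0.055. Kif18a was 0.039 with the length and GC trend removed.

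**Figure D3:**
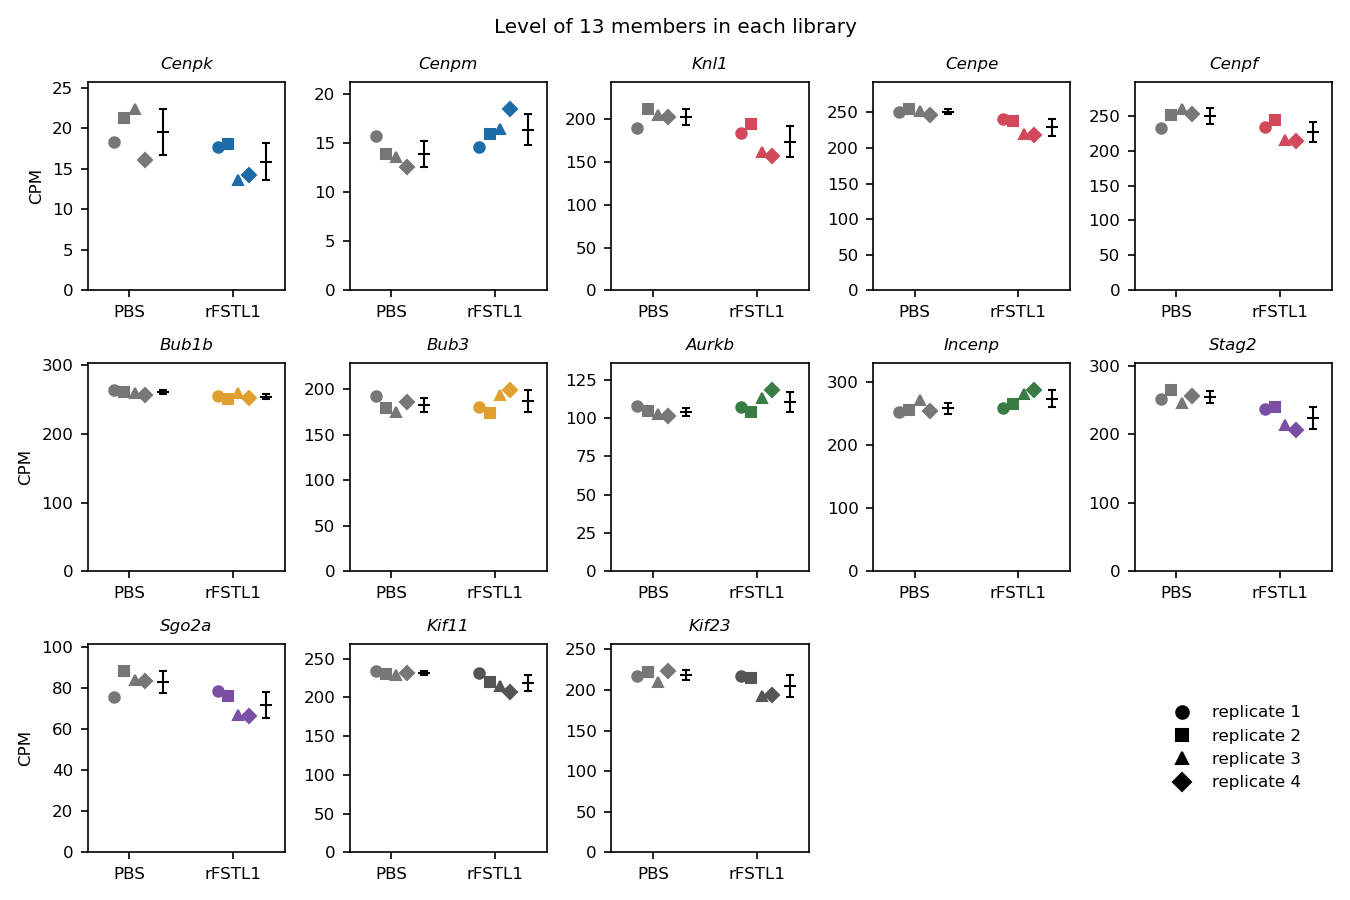
CPM (y axis, from 0) of the 13 members given by library under the stated rule, without Cdc20 and Bub1, is shown for the 4 PBS and 4 rFSTL1 libraries. Symbols mark the replicate number and a bar the mean ± SD. The groups are apart in Cenpe and Stag2, and in the others they overlap.

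To compare levels between genes, mean CPM was divided by the length of the longest annotated transcript, a scale that depends on that choice of transcript. Mean CPM without that division ran from 15.1 (Cenpm) to 363 (Rad21). Per length, the highest levels were those of Rad21 (91.9 CPM per kilobase), Ccnb1 (88.5), Bub1 (78.2) and Incenp (77.3). The lowest were Cenpt (5.99), Kif18a (6.99), Cenpl (8.34) and Cenpk (8.52). On this scale, subunits of 1 assembly were not level with each other. Ratios of partners on the same scale were taken for 9 pairs chosen after the levels had been seen. The Stag2 to Stag1 ratio was 1.53 ± 0.0531 under PBS and 1.45 ± 0.0335 under rFSTL1 (SD, n = 4 each). The Smc1a to Smc3 ratio, for the 2 arms of the ring, was 1.33 ± 0.0263 and 1.35 ± 0.0558, and that of Aurkb to Incenp was 0.711 ± 0.0355 and 0.714 ± 0.0190. The Mad2l1 to Cdc20 ratio was 0.246 ± 0.00379 under PBS and 0.248 ± 0.0406 under rFSTL1, where replicate 2 was highest (0.299) and replicate 4 lowest (0.204), and the mean was 0.279 without replicates 3 and 4. That ratio rests on the transcripts chosen, of 7.56 kb for Mad2l1 and 1.79 kb for Cdc20. Without division by length their mean levels were close, at 137 and 132 CPM. Spc24 to Spc25 had 0.792 ± 0.0623 and 0.890 ± 0.0986, and the rFSTL1 mean was 0.812 without replicates 3 and 4. Bub1b to Bub3 had 1.561 ± 0.0601 and 1.497 ± 0.0897, and Ccnb1 to Ccnb2 had 1.40 ± 0.0583 and 1.33 ± 0.0364. Pds5a to Pds5b had 2.29 ± 0.0920 and 2.25 ± 0.0599, and Ndc80 to Nuf2 had 0.619 ± 0.0187 and 0.608 ± 0.0256. These ratios were not tested.

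The direction of a member's change moved with the composition of its transcript. Across the 49 members, Spearman's rho between GC content and log2 fold change was 0.71, and between length and log2 fold change -0.53. Across the 10719 tested genes with a length the same values were 0.53 and -0.27. These are correlations across genes that share the same 8 libraries, so they carry no p. Members were less GC-rich than the rest, with a median of 43.9% against 49.4%, and the cohesin group was both poor in GC (41.7%) and long (median 5.55 kb, against 3.40 kb). Cenpk, at 37.1% GC, was the lowest in GC and had the most negative fold change, and Cenpm, at 55.9%, had the most positive. Both had low levels (means of 17.7 and 15.1 CPM) and large standard errors (0.12 and 0.095). At a GC content like that of Cenpm, Plk1 (56.0%) had 0.029 and Cdc20 (55.6%) had 0.0014.

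The members were split into 3 classes by GC content. In the 17 members with the least GC (37.1% to 42.3%), the median deviation from the PBS mean was 0.0030, -0.012, -0.13 and -0.21 in rFSTL1 replicates 1 to 4. Over all 1574 tested genes up to the same upper bound (31.0% to 42.3% GC) it was -0.018, -0.0039, -0.14 and -0.21. In the 16 members between, it was -0.025, -0.019, -0.11 and -0.13, and over all 2727 genes of that range -0.0077, -0.0060, -0.059 and -0.095. In the 16 members with the most GC it was -0.0027, -0.0025, 0.044 and 0.045, and over all 6418 genes above the same boundary 0.0075, -0.0075, 0.066 and 0.10. The deviation of replicates 3 and 4 thus had the same sign in the members and over all tested genes, members included, in all 3 classes, and its part in the members' changes was not tested. When the trend with length and GC was taken out of every library, the median log2 fold change of the members was -0.0078, beside -0.0077 over all tested genes, and 0 members were called by edgeR. On that scale the values were -0.20 for Cenpk, -0.088 for Knl1, -0.12 for Sgo2a, -0.062 for Stag2, -0.062 for Cenpe, -0.058 for Cenpf and 0.12 for Cenpm. For the cohesin group the median was -0.017, for the outer kinetochore -0.045 for the checkpoint genes 0.036, for the inner centromere -0.014, for the kinases -0.0059 and for the motors -0.0075.

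**Figure D4:**
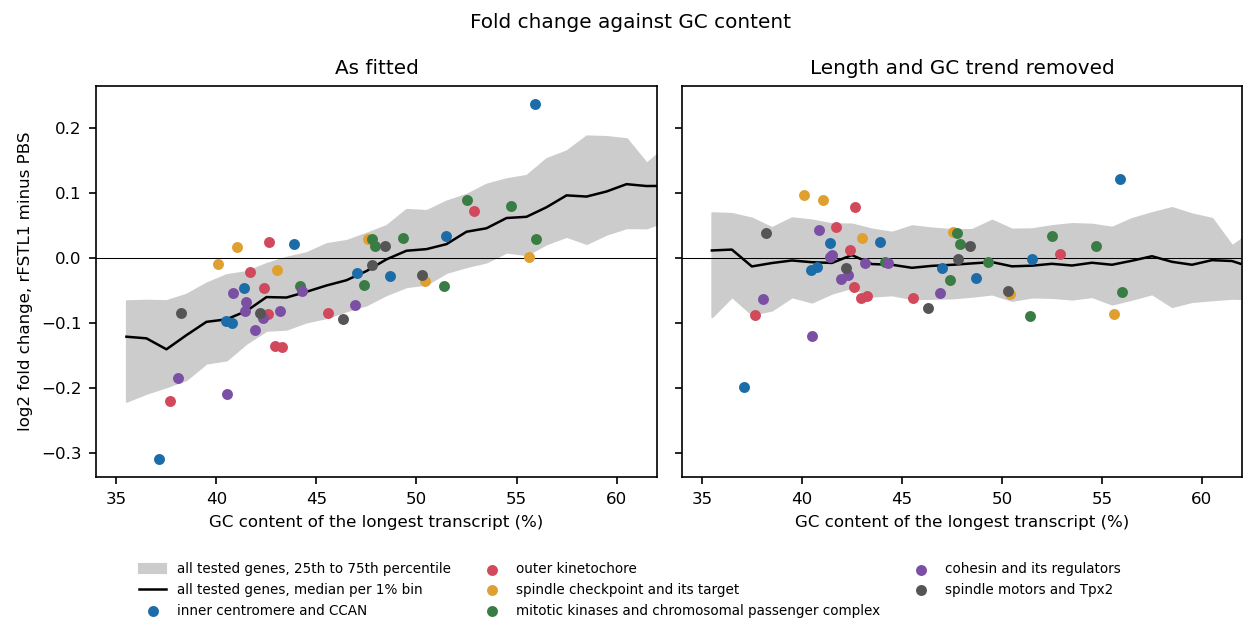
The log2 fold change of each member (y axis) is plotted against the GC content of its longest transcript (x axis, %), over the median and the 25th to 75th percentile of all tested genes in 1% bins, as fitted (left) and with the length and GC trend removed (right). On the left the members with more GC lie higher, along the line of all genes (Spearman's rho 0.71), and on the right they lie about 0.

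The 6 lists of further mitotic genes held 98 genes, all tested, of which 0 passed an adjusted p of 0.05 by edgeR and 14 (14.3%) had an unadjusted p under 0.05, against 15.8% of all genes. Of the 98 genes, 62 had a negative and 36 a positive fold change (median -0.031). The median was -0.020 without rFSTL1 replicates 3 and 4 and -0.021 with the length and GC trend removed. The genes with the largest change of their list included the following. Smc4, a core subunit of condensin, had -0.21 (edgeR adjusted p = 0.207), and Esco2, which acetylates cohesin, had -0.18 (edgeR adjusted p = 0.367). Ect2, the exchange factor that starts cytokinesis, had -0.18 (edgeR adjusted p = 0.137). Anapc11, the RING subunit of the APC/C, had 0.29 (edgeR adjusted p = 0.108), with all 4 rFSTL1 libraries above PBS, and Pkmyt1, which restrains Cdk1, had 0.14 (edgeR adjusted p = 0.375). DESeq2 called 2 of the 98 (2.04%, against 1.83% of all genes), Anapc11 higher and Ect2 lower. limma voom with sample quality weights called 5 (5.10%, against 4.22%), Ube2s higher and 4 genes lower, Ect2, Kif15 and Smc4 among them. Kif15 and Ube2s, a spindle kinesin and a ubiquitin-conjugating enzyme of the APC/C, are named because they were called there.

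A list of 23 S phase and replication genes gave 0 calls by edgeR and 2 with an unadjusted p under 0.05 (8.70%, against 15.8% of all genes). Of these genes, 12 had a positive and 11 a negative fold change, with a median of 0.0035. The gene with the largest change was Gins4, of the replicative helicase, with 0.16 (edgeR adjusted p = 0.252). The difference between this list and the mitotic genes was not tested.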

How the data were processed

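The authors deposited estimated counts per gene, not normalized, for 4 PBS and 4 rFSTL1 libraries of poly(A) RNA. The submitters' processing notes name HISAT2, StringTie 1.3.1, Bowtie2 2.2.8 and DESeq2, and the genome build is not given in the sources used here. Of the nonzero values 13% were not whole (tolerance 1e-06), although the planned design assumed counts, and they were rounded. Genes were filtered by edgeR's filterByExpr (minimum count 10), scaled by TMM and tested with edgeR 4.0.16 (R 4.3.3) over all 10748 genes at an adjusted p of 0.05, with DESeq2 1.42.0 and limma 3.58.1 as alternatives. Standard errors were derived from the F statistic. Exact two-sided permutation tests ran over the 70 assignments of libraries on log2(CPM + 1), with a smallest p of 0.0286. Lengths and GC content came from the longest GENCODE transcript, for 99.7% of tested genes, and their trends were removed by splines with 4 degrees of freedom per library. The edgeR fit was also run on simulated counts with planted changes larger than those of the members. That simulation held no trend with GC or length, so it does not cover deviations of that kind.

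The members and lists were chosen with earlier results of these data known. Values by library are given for members with an adjusted p under 0.05, with groups that did not overlap, or with the 2 largest changes of their role group. Cdc20 and Bub1 fall outside this rule and were added after their values had been seen. Pathway genes are named where called or largest in their list, and 1 gene is not reported here.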

Additional observations from a re-analysis of the deposited data

Results flagged for a closer look

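In each group of 4 libraries, Dixon's test looked for a library far from the other 3, over 98 groups, of which chance flags about 1 in 20 (4.9). It marked 3. Cenph, a CCAN subunit, was at 27.6 CPM in rFSTL1 replicate 2, with the other rFSTL1 libraries at 20.3 to 21.5 CPM. Mad2l1, the checkpoint protein, was at 143 CPM in PBS replicate 2, with the other PBS libraries at 135.6 to 135.7 CPM. Pds5b, a cohesin regulator, was at 121 CPM in PBS replicate 4, with the other PBS libraries at 110.1 to 111.4 CPM.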

How the results depend on the processing

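No member was called under any edgeR setting with all 8 libraries, nor without rFSTL1 replicates 3 and 4. DESeq2 called 2 members and limma voom 6, and leaving out 1 library gave 0 to 1, the call being Knl1 without rFSTL1 replicate 2. Of the further mitotic genes, DESeq2 called 2, limma voom 5 and the length and GC trend removed with the replicate block 1 (Ube2s, higher). Over all genes the 37 calls became 56 with upper-quartile scaling, 197 with DESeq2, 454 with limma voom, 127 with every gene of at least 1 count, 133 at an adjusted p of 0.1, 74 with the trend removed, 71 with the trend removed and the block, and 11 (without PBS replicate 2) to 99 (without rFSTL1 replicate 1) when 1 library was left out. They were split into 136 higher and 61 lower by DESeq2, 244 and 210 by limma voom, 63 and 11 with the trend removed and 58 and 32 without rFSTL1 replicate 2, against 35 and 2. The members' median of -0.043 was -0.0078 with the trend removed, -0.0078 with trend and block, -0.0011 without rFSTL1 replicates 3 and 4, and -0.068 (without rFSTL1 replicate 2) to -0.031 (without rFSTL1 replicate 4) with 1 library left out. For all of these the cause was not tested. Of 247 refits of the 13 members given by library under the stated rule, 236 kept the direction and the side of the threshold, 9 passed the threshold and 2 reversed. Cdc20 and Bub1 were not among these 13. Both reversals were of Bub3, at -0.0035 without rFSTL1 replicate 4 and -0.051 without rFSTL1 replicates 3 and 4, and its range with 1 library left out was -0.0035 to 0.056.

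Replicate numbers are shared between the groups, but same-numbered libraries did not deviate together (correlations of -0.0338 to 0.0136), so they were not taken as pairs. With the replicate block 41 genes and 0 members were called, and the members' median was -0.043. At these depths 45 of 49 members had 95% intervals within a 1.25-fold change.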
